A study of Mus musculus with 9 samples.

Results

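Growth hormone from the pituitary acts on the hepatocyte through its receptor, Ghr, and the transcription factor STAT5B, and switches on Igf1, the gene of the circulating growth factor IGF-1. The liver also makes the binding proteins that hold IGF-1 in blood (Igfbp1 to Igfbp4 here) and the acid labile subunit Igfals, which keeps IGF-1 and IGFBP3 together in a long-lived complex. Socs2 and Cish are STAT5 targets whose proteins damp growth hormone signalling, and Igfbp1 is known as a gene that insulin represses and that fasting and stress induce. These 10 genes were taken by gene name from the mRNA table, and all 10 were among its 21870 genes and among the 11557 that passed a filter on low values.

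Liver RNA was sequenced from wild-type C57 BL6 mice aged 8 weeks with an average weight of 20 g. The dmPGE2+APAP group was injected intraperitoneally with 300 μg/kg dmPGE2, a synthetic analogue of prostaglandin E2, and 1 h later with 500 mg/kg acetaminophen (APAP), a painkiller that injures the liver in overdose. The APAP group received the same acetaminophen dose without dmPGE2, and controls were given saline. The tissue dates from 6 h after APAP, and each group has 3 libraries. Every group that received dmPGE2 also received APAP, so dmPGE2 by itself was not analysed here. The labels do not say whether the mice had been fasted, their sex or the time of day.

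Values are FPKM (fragments per kilobase of transcript, scaled to the mapped fragments of the library) as deposited, which allow levels of different genes to be compared. Means are given with SD over n = 3 libraries, which the labels list as separate samples without saying whether each is a separate mouse. Fold changes come from limma on rescaled log2(FPKM + 0.1) over all 9 libraries, with two-sided p-values adjusted (Benjamini-Hochberg) over the 11557 genes, and "rose" or "fell" is used below for an adjusted p under 0.05. With 3 against 3 libraries, exact permutation of 1 value reaches no p below 0.1. The liver identity of the samples was borne out by 7 hepatocyte markers, which summed to between 34258.3 and 46621.2 FPKM per library, while transcripts of Prl, Ins1 and Ins2 were listed at 0 throughout, Gh was above 0 in a single APAP library (0.121 FPKM), and Gcg, the glucagon gene, was above 0 in 4 treated libraries, at 0.0528 FPKM or less. Control replicate 3 stood apart from the other controls on the second principal component (32.7 against −15.6 and −16.1, 12.6% of the variance), and its values are given beside each result they touch.

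Igfbp1 and Igfbp3 are neighbours on chromosome 11 (GRCm38, 7197782 to 7202546 on the plus strand and 7206086 to 7213923 on the minus strand), so their ends face each other across 3539 bases. Their RefSeq promoter windows on GRCm38.p6 are shown because the genes share a locus and differed widely in their response. Each is the 250 bases before the RefSeq start, read 5′ to 3′ on the gene's own strand. Capitals mark the letters TGTTTTG on either strand, the core of the insulin response element through which forkhead factors are known to act on this gene in human and rat.
Igfbp1 (chr11:7197537-7197786, plus strand): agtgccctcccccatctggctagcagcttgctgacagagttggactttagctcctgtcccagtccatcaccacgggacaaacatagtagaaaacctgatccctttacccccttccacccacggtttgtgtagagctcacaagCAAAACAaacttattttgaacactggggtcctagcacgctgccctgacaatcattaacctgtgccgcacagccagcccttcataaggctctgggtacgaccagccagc
Igfbp3 (chr11:7213924-7214173, minus strand): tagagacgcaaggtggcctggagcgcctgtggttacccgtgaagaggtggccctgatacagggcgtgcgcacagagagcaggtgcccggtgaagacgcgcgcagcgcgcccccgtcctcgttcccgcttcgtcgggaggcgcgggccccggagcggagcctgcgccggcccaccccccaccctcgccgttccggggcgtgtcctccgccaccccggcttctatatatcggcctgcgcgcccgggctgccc
The motif begins 108 bases before the Igfbp1 start, in 1 of the 14 windows of the 9 members that the table holds, and in 5.56% of all 32851 windows. G and C made up 53.2% of the Igfbp1 window and 73.2% of the Igfbp3 window.

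Of the other motifs searched on both strands, the STAT5 motif TTCNNNGAA was found in 2 windows, both of Igfals, and in 7.02% of all windows. The site nearest a start of Igfals, the gene of the acid labile subunit, begins 58 bases before it and is shown with 10 bases on either side and the motif in capitals.
Igfals (chr17:24878163-24878191, plus strand): ctgccaggtgTTCCTAGAAgaggccctgg
The forkhead motif TGTTTAC was in 1 member window (Igfals) and in 3.17% of all windows, the cAMP half-site TGACG in those of Cish and Igfals and in 17.8% of all, and the ATF4 motif TGATGNAA in 0 of 14 and in 3.45% of all. These matches describe letters in a short window and say nothing of binding.

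In APAP livers against controls, Igfbp1 rose more than 20-fold, Igfbp2 and Igfbp3 rose less than 2-fold, and Igf1, Socs2 and Cish fell. The 3 rises and 3 falls among 10 genes compare with 21.0% of all tested genes called (11.8% higher and 9.22% lower). In dmPGE2+APAP livers against controls, Igfbp1 and Igfbp3 rose and Igf1 and Cish fell, 4 of 10 genes against 16.3% of all genes (8.82% higher and 7.52% lower). The 2 comparisons share the control libraries. In deposited FPKM, 12.9% of all tested genes lay above all controls without overlap in APAP livers and 11.3% in dmPGE2+APAP livers. Below all controls lay 30.6% in APAP and 31.1% in dmPGE2+APAP livers. Between dmPGE2+APAP and APAP livers limma called 0 of 10 members and 0% of all genes (2 and 1075 at an unadjusted p under 0.05). The median log2 fold change of the 10 members was −0.32 for APAP over control, 0.003 for dmPGE2+APAP over control and 0.22 for dmPGE2+APAP over APAP, where the medians over all tested genes were −0.008, 0.002 and 0.002.

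**Figure D1:**
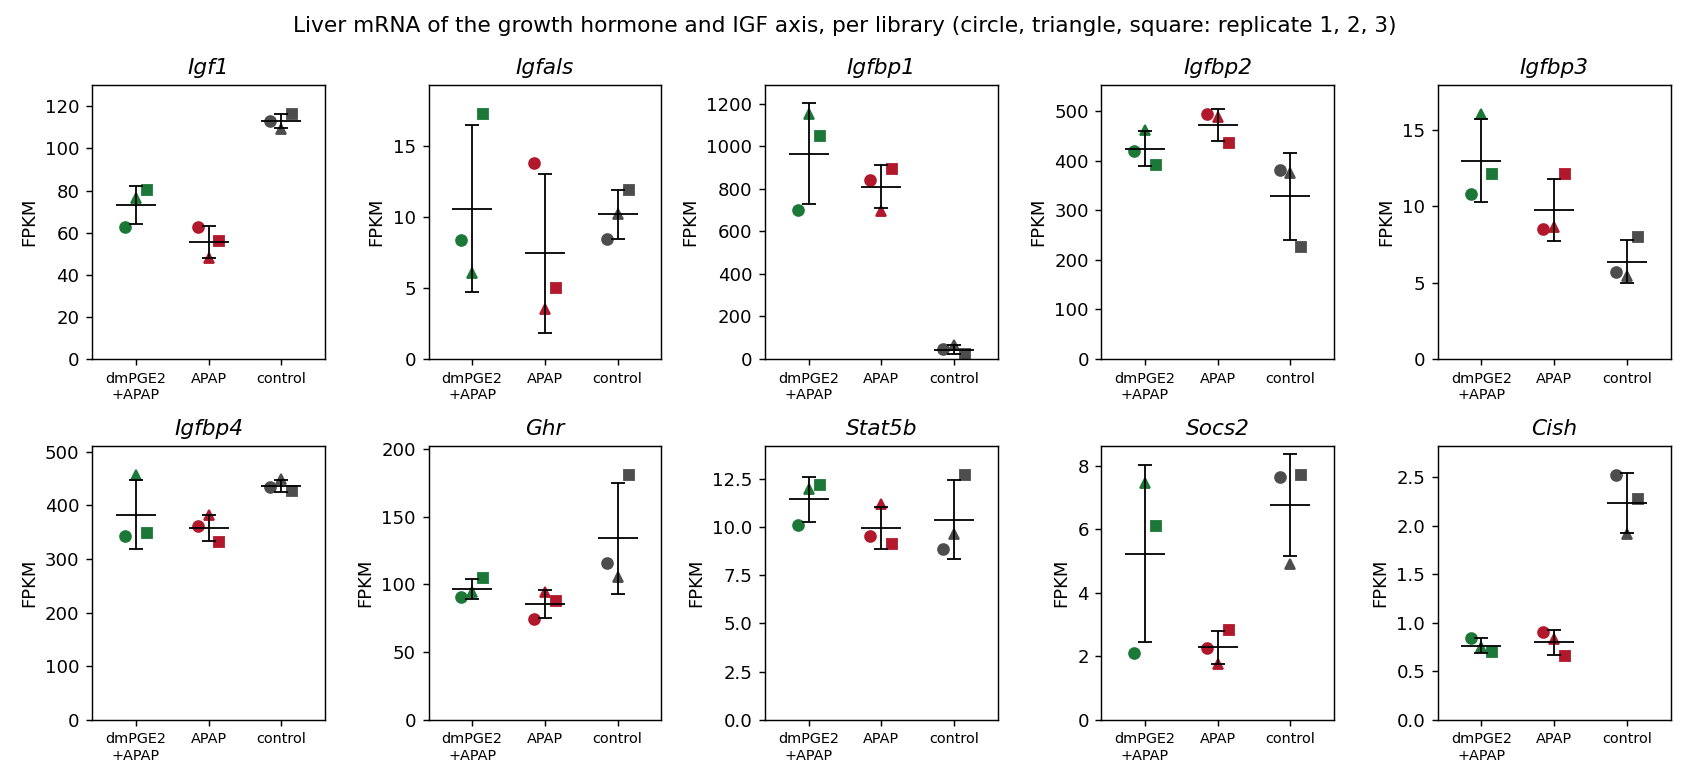
Deposited FPKM of the 10 genes in each library (points, with the shape giving the replicate), with the group mean and SD (black bars), in dmPGE2+APAP, APAP and control livers. Igfbp1 lies between 697.8 and 1150.4 FPKM in the 6 treated libraries and at most at 66.6 in controls, and Socs2 is split within the dmPGE2+APAP group.

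Igf1, the ligand (ENSMUSG00000020053, chromosome 10, 87857842 to 87937042, plus strand), was at 62.8, 76.4 and 80.3 FPKM in dmPGE2+APAP livers, at 62.7, 47.8 and 56.1 in APAP livers and at 113, 109.4 and 116.2 in controls. All 6 treated libraries lay below all controls, and each dmPGE2+APAP library lay above each APAP library (62.8 against 62.7 in the nearest pair). Igf1 fell to 0.538 of the control level in APAP livers (log2 −0.90, SE 0.119, limma adjusted p = 0.00143). In dmPGE2+APAP livers it fell to 0.712 of control (log2 −0.49, adjusted p = 0.0243). Leaving out replicate 1 or 2 of either group ended that call (limma adjusted p from 0.0603 to 0.0756). The direct comparison of dmPGE2+APAP with APAP gave a fold of 1.32 with a 95% confidence interval of 0.14 to 0.67 on the log2 scale, and it did not pass (limma adjusted p = 0.358). Igf1 was the 1 member whose dmPGE2+APAP and APAP values did not overlap, where 7.11% of all tested genes were higher in dmPGE2+APAP without overlap and 8.93% lower.

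Igfals, which encodes the acid labile subunit (ENSMUSG00000046070, chromosome 17, 24865997 to 24882010, plus strand), was at 8.39, 6.07 and 17.2 FPKM in dmPGE2+APAP livers, 13.8, 3.5 and 4.98 in APAP livers and 8.46, 10.2 and 11.9 in controls. The 3 groups overlapped, and the coefficient of variation was 55.8% in dmPGE2+APAP, 75% in APAP and 17.1% in control livers. The fitted log2 differences had wide intervals, from −1.68 to 0.58 for APAP over control and from −1.06 to 1.20 for dmPGE2+APAP over control (limma adjusted p of 0.469 and 0.941).

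Among the binding proteins, Igfbp1 (ENSMUSG00000020429) was at 698.3, 1150.4 and 1047 FPKM in dmPGE2+APAP livers, 839.7, 697.8 and 892 in APAP livers and 45.6, 66.6 and 22.2 in controls. The treated libraries overlapped with each other and lay more than 10-fold above every control. Igfbp1 rose 21.7-fold in APAP livers (log2 4.44, SE 0.366, limma adjusted p = 0.000155) and 25.5-fold in dmPGE2+APAP livers (log2 4.67, adjusted p = 0.00015). Of the 11557 genes tested, 22 had a larger log2 fold change for APAP over control, and 10 for dmPGE2+APAP over control. Ranked by mean FPKM over the whole table, Igfbp1 was number 61 in dmPGE2+APAP, 66 in APAP and 996 in control livers. Control replicate 3 had the lowest Igfbp1, and without it the log2 fold changes were 3.98 in APAP and 4.21 in dmPGE2+APAP livers. Between dmPGE2+APAP and APAP the fold was 1.18, with an interval of −0.59 to 1.06 on the log2 scale (adjusted p = 0.878).

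Igfbp2, which encodes an abundant binding protein of liver (ENSMUSG00000039323, chromosome 1, 72824503 to 72852474, plus strand), was at 419.5, 461.5 and 392.1 FPKM in dmPGE2+APAP livers, 493.4, 487.6 and 435.3 in APAP livers and 381.8, 375.1 and 226.4 in controls. Every treated library was above every control, and control replicate 3 was far below the other controls. FPKM above all controls without overlap were found in 12.9% of all tested genes for APAP and in 11.3% for dmPGE2+APAP. The 1.62-fold rise in APAP livers (limma adjusted p = 0.0432) passed in 9 of the 18 alternatives run and missed in the other 9. On FPKM with no rescaling its log2 fold change was 0.56, against 0.70 with it (limma adjusted p = 0.0583), and its adjusted p lay between 0.0619 and 0.112 without any single treated library. The 1.47-fold difference in dmPGE2+APAP livers did not pass (adjusted p = 0.105). Without control replicate 3 the log2 fold changes of Igfbp2 were 0.28 in dmPGE2+APAP livers (limma adjusted p = 0.112), against 0.55 with it, and 0.43 in APAP livers (0.026), against 0.70.

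Igfbp3, whose protein carries most IGF-1 in adult blood (ENSMUSG00000020427), was at 10.8, 16 and 12.1 FPKM in dmPGE2+APAP, 8.49, 8.66 and 12.1 in APAP and 5.68, 5.41 and 7.97 in control livers. Control replicate 3 was the highest control and still lay below every treated library. Igfbp3 rose 2.23-fold in dmPGE2+APAP livers (log2 1.16, SE 0.188, limma adjusted p = 0.00442), and this call was kept without any single library. The 1.68-fold rise in APAP livers (adjusted p = 0.0229) did not pass when control replicate 1, control replicate 2 or APAP replicate 3 was omitted (limma adjusted p from 0.0683 to 0.076), nor on FPKM with no rescaling (0.0555). In rodent liver Igfbp3 mRNA is known from non-parenchymal cells. The 7 sinusoidal endothelial markers, none at 0, summed to 90.3 to 93.7 FPKM in dmPGE2+APAP, 75 to 95.5 in APAP and 80.8 to 84 in control libraries, and 6 Kupffer cell markers, none at 0, to 86.7 to 91.2 in dmPGE2+APAP, 46.8 to 83 in APAP and 82 to 95.6 in control libraries. The 6 stellate cell markers, none at 0, summed to 173.8 to 194.3 FPKM in dmPGE2+APAP, 163 to 190.4 in APAP and 119.6 to 160.8 in control libraries. Single markers within these sums moved apart. Lyve1 rose 5.91-fold in dmPGE2+APAP and 3.56-fold in APAP livers (limma adjusted p of 0.000662 in dmPGE2+APAP and 0.00254 in APAP livers), while Kdr fell to 0.581 of control in dmPGE2+APAP and 0.657 in APAP livers, and Stab1 rose in APAP livers (1.33-fold). Of the stellate markers Dcn (1.53-fold in dmPGE2+APAP and 1.45-fold in APAP livers) and Ecm1 (1.54-fold in dmPGE2+APAP and 1.45-fold in APAP livers) rose, and no Kupffer cell marker passed in either comparison. In bulk liver a change in the number of such cells and a change of RNA per cell cannot be told apart, and their part in the Igfbp3 result was not tested.

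Igfbp4, another abundant carrier (ENSMUSG00000017493, chromosome 11, 99041244 to 99054392, plus strand), was at 342.2, 456.5 and 347.7 FPKM in dmPGE2+APAP livers, 360.7, 381.2 and 331.6 in APAP livers and 433.4, 448.8 and 426.5 in controls. In deposited FPKM all APAP libraries were below all controls, which held for 30.6% of all tested genes. The highest of all 9 was dmPGE2+APAP replicate 2. On the rescaled log2 scale APAP replicate 2 (8.64) lay above control replicate 3 (8.595). After rescaling, the log2 difference for APAP over control was −0.15 with an interval of −0.44 to 0.14 (limma adjusted p = 0.429), and for dmPGE2+APAP over control it was −0.06 (adjusted p = 0.783).

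The make-up of binding protein mRNA was unlike in treated and control livers. Igfbp1 to Igfbp4 summed to 1470.8, 2084.4 and 1799.2 FPKM in dmPGE2+APAP livers, 1702.4, 1575.3 and 1671 in APAP livers and 866.6, 895.9 and 683.1 in controls. Igfbp1 made up 53.6% ± 5.53 of this sum in dmPGE2+APAP livers, 49% ± 4.55 in APAP livers and 5.32% ± 2.1 in controls. Each difference from controls had an exact two-sided permutation p of 0.1, the smallest that 3 against 3 libraries allow, and the exact p between dmPGE2+APAP and APAP was 0.4. In controls Igfbp4 held the largest share, at 50%, 50.1% and 62.4%. The share is taken within a library and does not depend on how libraries are scaled to each other.

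Set against the ligand, the log2 ratio of Igf1 to the summed binding protein FPKM was −4.60 ± 0.15 in dmPGE2+APAP livers, −4.90 ± 0.14 in APAP livers and −2.84 ± 0.25 in controls. The treated ratios did not overlap the control ratios (exact permutation p = 0.1 for each, the smallest possible). Between dmPGE2+APAP and APAP the difference was 0.30 (exact p = 0.2). Igf1 FPKM exceeded Igfbp1 FPKM by 2.48, 1.64 and 5.24 times in the 3 control libraries and was 0.0629 to 0.0899 of it in the 6 treated libraries.

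**Figure D2:**
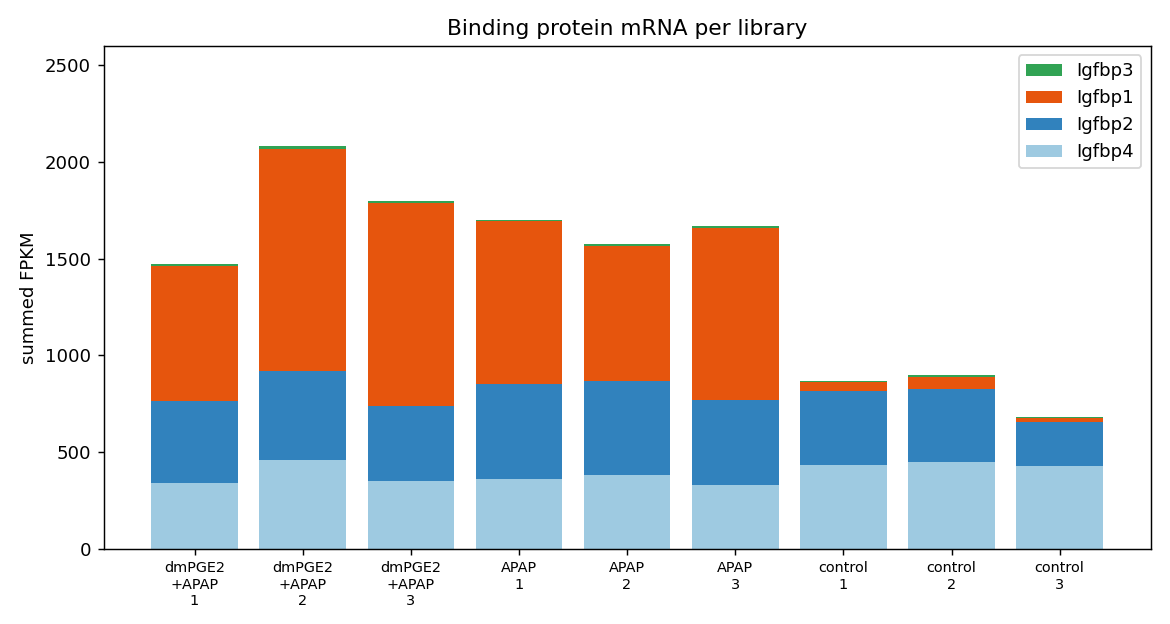
Summed FPKM of Igfbp1, Igfbp2, Igfbp3 and Igfbp4 in each library, as stacked bars. Igfbp1 takes 44.3% to 58.2% of the bar in treated libraries and 3.24% to 7.44% in controls, while Igfbp3 is a thin line at the top.

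Ghr, the growth hormone receptor gene (ENSMUSG00000055737, chromosome 15, 3317760 to 3583492, minus strand), was at 90.4, 94.6 and 105 FPKM in dmPGE2+APAP livers, 74.5, 94.5 and 87.5 in APAP livers and 115.9, 105.5 and 180.8 in controls. In deposited FPKM the controls were all higher, by less than 1 FPKM at the nearest pair. Control replicate 3 was far above the other controls. After rescaling, dmPGE2+APAP replicate 3 (log2 6.772) lay above control replicate 2 (6.65), while the APAP libraries stayed below all controls. Ghr was at 0.718 of the control level in APAP livers and did not pass (log2 −0.48, interval −0.89 to −0.07, limma adjusted p = 0.0916). On FPKM with no rescaling it passed (log2 −0.61, adjusted p = 0.0429), and without control replicate 3 the log2 difference was −0.27 (adjusted p = 0.165). In dmPGE2+APAP livers it was at 0.818 of control (log2 −0.29, adjusted p = 0.308), and without control replicate 3 the log2 difference was −0.08 (limma adjusted p = 0.709). Before rescaling, FPKM below all controls without overlap were found in 30.6% of all tested genes for APAP and in 31.1% for dmPGE2+APAP.

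Stat5b, the transcription factor gene (ENSMUSG00000020919, chromosome 11, 100780731 to 100850724, minus strand), was at 10.1, 12 and 12.2 FPKM in dmPGE2+APAP livers, 9.56, 11.2 and 9.12 in APAP livers and 8.84, 9.63 and 12.7 in controls, and the groups overlapped. The interval of the log2 difference was −0.23 to 0.40 for APAP over control and −0.02 to 0.60 for dmPGE2+APAP over control (limma adjusted p of 0.7 and 0.191). Control replicate 3 was the highest control. Without it the log2 differences of Stat5b were 0.21 in APAP and 0.42 in dmPGE2+APAP livers (limma adjusted p of 0.263 and 0.0582). These data bear on Stat5b mRNA and not on phosphorylation of the protein, which is how growth hormone activates it.

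Of the feedback genes, Cish (ENSMUSG00000032578, chromosome 9, 107296026 to 107302784, plus strand) was at 0.845, 0.75 and 0.698 FPKM in dmPGE2+APAP livers, 0.907, 0.833 and 0.652 in APAP livers and 2.52, 1.91 and 2.27 in controls. Its treated libraries all lay below 1 FPKM and all controls above. Cish fell to 0.419 of control in APAP livers (log2 −1.25, SE 0.172, limma adjusted p = 0.00166) and to 0.408 in dmPGE2+APAP livers (log2 −1.30, adjusted p = 0.00168). Both calls were kept under all 18 alternatives run, each left-out library included. Its log2 difference between dmPGE2+APAP and APAP had an interval of −0.43 to 0.35.

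Socs2 (ENSMUSG00000020027, chromosome 10, 95385362 to 95417180, minus strand) was at 2.11, 7.47 and 6.11 FPKM in dmPGE2+APAP livers, 2.26, 1.76 and 2.82 in APAP livers and 7.65, 4.9 and 7.71 in controls. The APAP libraries lay below all controls, and dmPGE2+APAP replicate 1 lay among the APAP libraries while replicates 2 and 3 lay within the range of the controls. Socs2 fell to 0.382 of control in APAP livers (log2 −1.39, SE 0.406, limma adjusted p = 0.0404). Omitting any 1 control or APAP library ended that call (adjusted p from 0.0526 to 0.108). In dmPGE2+APAP livers it was at 0.771 of control and did not pass (interval −1.29 to 0.54 on the log2 scale, adjusted p = 0.572). For dmPGE2+APAP over APAP the fold was 2.02, with 57 of 11557 genes at a larger log2 fold change, and it did not pass (limma adjusted p = 0.502). Without dmPGE2+APAP replicate 1 this log2 difference was 1.54 (limma adjusted p = 0.0489).

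**Figure D3:**
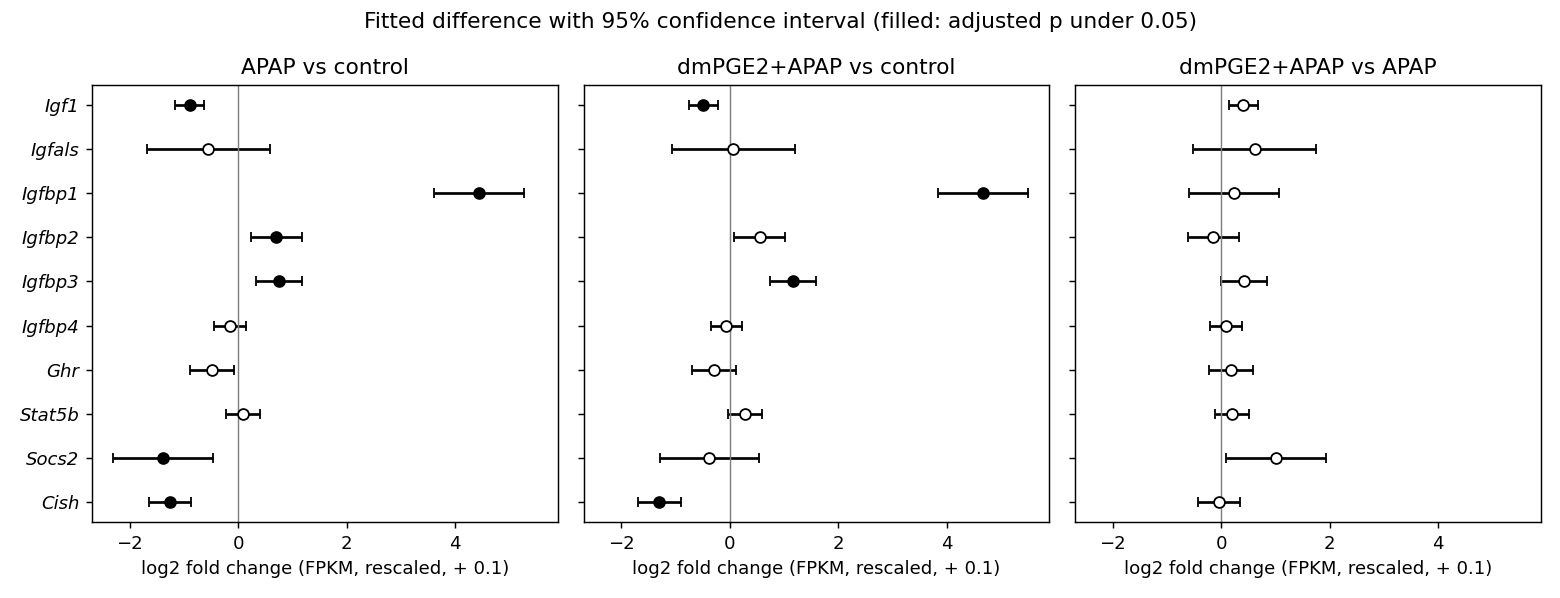
Fitted log2 fold change of each gene with its 95% confidence interval in the 3 comparisons, where filled points passed an adjusted p under 0.05 in limma. Igfbp1 stands far to the right in both comparisons with control (4.67 for dmPGE2+APAP and 4.44 for APAP), and all points for dmPGE2+APAP over APAP are open.

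By mean FPKM the 10 genes ran, in controls, from Igfbp4 (436.2 ± 11.4) and Igfbp2 (327.8 ± 87.8) through Ghr (134.1 ± 40.8), Igf1 (112.9 ± 3.42) and Igfbp1 (44.8 ± 22.3) to Stat5b (10.4 ± 2.04), Igfals (10.2 ± 1.74), Socs2 (6.75 ± 1.61), Igfbp3 (6.35 ± 1.4) and Cish (2.23 ± 0.311). Ghr and Igf1, Stat5b and Igfals, and Socs2 and Igfbp3 lay within their spread of each other. In APAP livers Igfbp1 (809.9 ± 100.5) headed the order, followed by Igfbp2 (472.1 ± 32) and Igfbp4 (357.8 ± 24.9), and Ghr (85.5 ± 10.1) was above Igf1 (55.5 ± 7.51). In dmPGE2+APAP livers the first 3 were Igfbp1 (965.3 ± 236.9), Igfbp2 (424.4 ± 34.9) and Igfbp4 (382.1 ± 64.4), the last pair within their spread.

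Over the 9 libraries, which fall into treated and control clusters, the genes outside the 10 whose log2 level followed Igfbp1 most closely were the AP-1 gene Jund (r = 0.998), Trp53bp2 (0.995) and Nfil3, a transcription factor gene (0.994). Jund averaged 117 FPKM in dmPGE2+APAP, 104 in APAP and 35.2 in control livers. Nearest to Igf1 were Sft2d2 (r = 0.977), the RNA polymerase II subunit gene Polr2b (0.976) and Rpp30 (0.967), and nearest to Ghr were Rbbp4 (0.972), Gulo (0.972), which encodes the last enzyme of vitamin C synthesis, and Masp1 (0.968). Nearest to Socs2 were Cd79b (0.944), B3galt1 (0.939) and Rwdd3 (0.936). Cd79b lay near the filter of 0.5 FPKM, with means of 0.41 in dmPGE2+APAP, 0.183 in APAP and 0.535 in control livers. B3galt1 averaged 8.85 FPKM in dmPGE2+APAP, 3.3 in APAP and 9.32 in control livers. These likenesses describe 9 points that share their group differences and carry no test.

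Among 40 further genes of the axis, 34 were tested. In APAP livers 9 rose and 3 fell, with a median log2 fold change of 0.03, and in dmPGE2+APAP livers 6 rose and 3 fell, with a median of −0.02. Those shares, 12 and 9 of 34, compare with 21.0% and 16.3% of all genes. Foxo3 encodes a forkhead factor whose protein, rather than its mRNA, is held in check by insulin and IGF signalling. Foxo3 mRNA averaged 35.6 ± 4.79 FPKM in dmPGE2+APAP, 28.4 ± 3.26 in APAP and 16.9 ± 1.78 in control livers. Foxo3 rose 2.31-fold in dmPGE2+APAP livers (limma adjusted p = 0.000437) and 1.84-fold in APAP livers (0.00152). Its relative Foxo1 averaged 14.3 ± 0.386 FPKM in dmPGE2+APAP, 10.5 ± 1.5 in APAP and 8.29 ± 0.688 in control livers and rose 1.9-fold in dmPGE2+APAP and 1.38-fold in APAP livers. The insulin receptor substrate gene Irs2 rose 2.07-fold in dmPGE2+APAP and 1.85-fold in APAP livers, while Irs1 (log2 −0.46 in dmPGE2+APAP and −0.07 in APAP livers) and the insulin receptor gene Insr (log2 −0.09 in dmPGE2+APAP and −0.18 in APAP livers) did not pass.

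Receptors differed. Igf1r, the IGF-1 receptor gene, which hepatocytes express little, was at 1.26 ± 0.105 FPKM in dmPGE2+APAP, 1.46 ± 0.372 in APAP and 0.791 ± 0.0721 in control livers, and rose 1.67-fold in dmPGE2+APAP livers (limma adjusted p = 0.0246) and 1.87-fold in APAP livers (0.00872). Prlr, the prolactin receptor gene, which also signals through STAT5, was at 12.9, 17.4 and 14.1 FPKM in dmPGE2+APAP livers, 9.54, 9.47 and 10.6 in APAP livers and 14.7, 18.5 and 17.2 in controls. Prlr fell to 0.651 of control in APAP livers (adjusted p = 0.00782), was at 0.972 of control in dmPGE2+APAP livers, and the direct comparison of dmPGE2+APAP with APAP did not pass (fold 1.49, adjusted p = 0.263).

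Of other signalling genes, the SOCS family gene Socs7 rose 1.73-fold in dmPGE2+APAP and 1.46-fold in APAP livers, and Igfbp7, a binding protein of low affinity for IGFs, rose 1.55-fold in dmPGE2+APAP and 1.45-fold in APAP livers. The growth hormone receptor kinase gene Jak2 (1.38-fold), the phosphatase gene Ptpn1 (1.31-fold) and Socs3, the cytokine feedback gene (4.01-fold), rose in APAP livers but did not pass in dmPGE2+APAP livers (1.18, 1.19 and 2.49-fold), where Socs3 was at 25.9, 8.75 and 4.21 FPKM. The 3 calls in APAP livers had limma adjusted p of 0.0357, 0.049 and 0.034. They were lost in 6, 8 and 6 of the 9 fits that left out 1 library. The adaptor gene Shc1 fell to 0.822 of control in dmPGE2+APAP livers and was at 0.909 in APAP livers, which did not pass. The difference between dmPGE2+APAP and APAP did not pass for any of the 34. Igf2, Pappa, Pappa2, Stc1, Stc2 and Socs1 were below the filter.

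Onecut1, a hepatocyte transcription factor gene that growth hormone is known to induce in rat liver, was at 1.1, 1.38 and 1.27 FPKM in dmPGE2+APAP livers, 1.01, 0.665 and 1.35 in APAP livers and 4.76, 4.3 and 25.7 in controls. It fell in dmPGE2+APAP (log2 −2.47, limma adjusted p = 0.0198) and in APAP livers (log2 −2.81, adjusted p = 0.00953). Control replicate 3 raised its control mean, and without that library the log2 fold changes were −1.67 in dmPGE2+APAP and −2.01 in APAP livers. The dmPGE2+APAP call was lost without any 1 dmPGE2+APAP library.

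Of 15 liver genes that growth hormone makes higher in male mice, all were tested, and 2 were called in dmPGE2+APAP livers, where 16.3% of all genes were called, and 3 in APAP livers, where 21.0% were. Both shares are near those of all genes. In both treated groups Elovl3, a fatty acid elongase gene, rose (153 ± 29.2 FPKM in dmPGE2+APAP, 141 ± 22.4 in APAP and 46.1 ± 7.5 in control livers) and the complement inhibitor gene Susd4 fell (to 0.709 of control in dmPGE2+APAP and 0.663 in APAP livers). Mup1, a urinary protein gene whose reads can be shared with near-identical copies and which is uncertain, fell to 0.192 in APAP livers (adjusted p = 0.0262 in limma). The other 12 did not pass in either comparison, Cyp2d9 (481 ± 89.9, 460 ± 26.9 and 512 ± 63.9 FPKM in dmPGE2+APAP, APAP and control livers) among them. The median log2 fold change of the 15 was 0.06 in dmPGE2+APAP and −0.13 in APAP livers. Of 14 genes higher in female mice only Abcd2 passed the filter, and it was not called.

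Across these other genes, leaving out 1 library at a time kept 7 of the 15 calls for APAP and 6 of the 11 for dmPGE2+APAP. For APAP the calls kept were those of Igf1r, Prlr, Igfbp7, Irs2, Foxo3, Onecut1 and Elovl3, and for dmPGE2+APAP those of Igfbp7, Irs2, Socs7, Foxo1, Foxo3 and Elovl3. Without control replicate 2 the calls numbered 8 for APAP and 7 for dmPGE2+APAP. Without APAP replicate 1 those for APAP numbered 9, and without dmPGE2+APAP replicate 2 or 3 those for dmPGE2+APAP numbered 6 and 7.

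**Figure D4:**
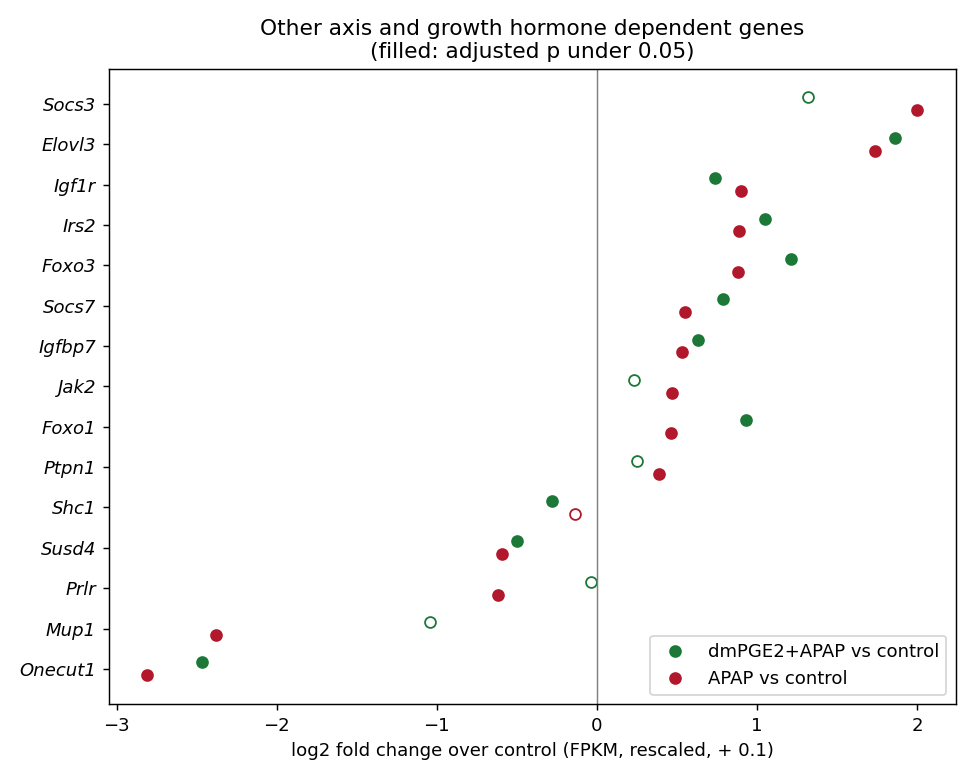
Log2 fold change over control of 15 other axis and growth hormone dependent genes called in at least 1 of the 2 comparisons with control, for dmPGE2+APAP (green) and APAP (red), where filled points passed an adjusted p under 0.05. Onecut1 lies farthest to the left (−2.47 in dmPGE2+APAP and −2.81 in APAP livers), and Socs3, Elovl3, Foxo3 and Irs2 lie to the right.

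The table of non-coding transcripts lists 23 entries of 7 of the 10 genes, 19 annotated in GENCODE as processed transcripts and 4 as retained introns. None exceeded 4.38 FPKM, and 15 passed a filter of 0.1 FPKM. Igfbp4-206, a processed transcript, was at 0.165, 0.862 and 0.552 FPKM in dmPGE2+APAP livers, 0.194, 0.413 and 0.573 in APAP livers and 2.44, 2.14 and 4.07 in controls. Igfbp2-203, a retained intron, was at 0.349, 0.962 and 0.968 FPKM in dmPGE2+APAP livers, 0.511, 0.657 and 0.906 in APAP livers and 2.26, 2.28 and 2.5 in controls. All treated libraries lay below all controls for both transcripts, and also for Igfals-204, Igfals-202, Igfbp4-202 and Cish-202, which were not called. The share of all non-coding transcripts with this separation was not computed. Igfbp4-206 and Igfbp2-203 were lower in APAP livers (log2 −2.59 and −1.63, limma adjusted p of 0.0241 and 0.0409). These are 2 of 15, where 3.85% of all tested transcripts were called and 0.883% called lower. In dmPGE2+APAP livers neither passed (adjusted p of 0.0514 and 0.069, where 1.71% of transcripts were called and 0.487% called lower). Both calls were lost without any single control or APAP library. The mRNA of Igfbp2 was higher and not lower in the same APAP livers, and how fragments were divided between the transcripts of a gene is not given in the sources used here.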

How the data were processed

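The submitters' processing notes name HISAT2 and the build GRCm38 (mm10). The quantifier, annotation release and filters are not given in the sources used here. The authors deposited FPKM per gene for mRNA and per transcript for non-coding RNA, per the file headers. The control columns carry a name the labels do not define and were assigned by elimination. The authors' second kind of table is headed as counts but its deposited values are a score, which in the non-coding table equals FPKM times genomic span times a constant per library (60.04 to 78.55 per kilobase), within 1% for all scores of 1000 or more. Depth is therefore unknown, no count test could be used, and no counting interval is given. FPKM was divided by an unweighted trimmed mean factor (30% by ratio, 5% by abundance; 0.9459 to 1.103 for mRNA), which moved the log2 difference by 0.135 for APAP over control, 0.143 for dmPGE2+APAP over control and 0.00739 for dmPGE2+APAP over APAP. Folds are relative to these shifts, and the added 0.1 makes those of low genes too small. Genes with 0.5 FPKM and non-coding transcripts with 0.1 FPKM in at least 3 libraries were fitted in limma 3.58.1 (R 4.3.3) as 3 group means with an abundance trend and 6 residual degrees of freedom. The fit was run on simulated data with independent normal noise per gene and no outlying library. Of 100 changes of log2 1 it recovered 77 for APAP over control, 72 for dmPGE2+APAP over control and 80 for dmPGE2+APAP over APAP. False calls numbered 4, 12 and 8. Without an outlying library the simulation does not show how the fit behaves with a library such as control replicate 3. Per the labels' protocols the libraries used dUTP, but whether quantification used the strand is not recorded. All 10 members, and listed genes called against control, are named, except 1 that is counted but not reported here; the 3 genes nearest to Igf1, Igfbp1, Ghr and Socs2 were chosen by Pearson correlation. The 10 genes and all lists were chosen with earlier results of these data known.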

Additional observations from a re-analysis of the deposited data

How the results depend on the processing

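Over 540 refits of the members' fold changes, 500 kept their direction and their side of the threshold, 26 lost and 2 gained a call, and 12 turned sign, all of the 12 in fold changes that were never called. Those were Stat5b in APAP livers (−0.05 with no rescaling, −0.01 without control replicate 1 and −0.01 without APAP replicate 2, left-out range −0.01 to 0.21), Igfals in dmPGE2+APAP livers over control (−0.07 with no rescaling, −0.04 without control replicate 1, −0.36 without dmPGE2+APAP replicate 3, range −0.36 to 0.41) and Socs2 in the same comparison (0.16 without dmPGE2+APAP replicate 1, range −0.70 to 0.16). For dmPGE2+APAP over APAP they were Igfbp4 (−0.02 without dmPGE2+APAP replicate 2, range −0.02 to 0.15) and Cish (0.05 with quantile normalization, range −0.17 to 0.05 with a library left out). Of the other axis genes Prlr turned in dmPGE2+APAP livers over control (range −0.14 to 0.04). Leaving out 1 library at a time gave 3 to 5 members called for APAP over control (3 without APAP replicate 3), 3 to 4 for dmPGE2+APAP over control and 0 to 1 for dmPGE2+APAP over APAP. Axis and growth hormone dependent genes called ranged from 8 to 15 for APAP and from 6 to 12 for dmPGE2+APAP over control, against 15 and 11. All genes called ranged from 1544 to 2259 (2427 with all libraries), from 1027 to 1829 (1888) and from 0 to 50 (0). With the 2 groups compared alone, 2 genes were called for dmPGE2+APAP over APAP. With no rescaling 3081 genes were called for APAP over control, 31.6% of them higher, against 56.1%, and 2506 for dmPGE2+APAP over control, 28.5% of them higher, against 54%. Non-coding transcripts of the members called numbered 2, and 4 with a pseudocount of 1, 4 with a filter at 0.5 FPKM, and 0 to 3 with a library left out. Replicate numbers do not pair the libraries by the labels, and deviations of same-numbered libraries correlated between −0.117 and 0.071. With the replicate number as a block 5, 3 and 0 members were called in the 3 comparisons, Socs2 in APAP (adjusted p = 0.0553) and Igf1 in dmPGE2+APAP livers (adjusted p = 0.0505) being lost, and 1 non-coding transcript. The share of Igfbp1 and the ratio of Igf1 to binding protein kept their direction in every refit. With depth unknown, no counting error stands beside the fitted precision of low genes such as Cish. That precision rests on the spread between libraries, pooled over the 3 groups with an abundance trend.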

Other observations

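Several genes under growth hormone control had 1 control value far from the other controls. Hsd3b5, a steroid dehydrogenase gene higher in male mice, was at 7.78, 11.4 and 16.8 FPKM in dmPGE2+APAP livers, 3.83, 9.07 and 7.92 in APAP livers and 6.55, 5.38 and 195 in controls, where the high value was replicate 3. Selenbp2 was at 104, 104 and 134 FPKM in dmPGE2+APAP livers, 41.8, 158 and 69.1 in APAP livers and 35.5, 53.1 and 418 in controls. Bcl6, a repressor that continuous growth hormone lowers, was at 10.4, 9.53 and 5.63 FPKM in dmPGE2+APAP livers, 4.72, 7.41 and 6.18 in APAP livers and 1.38, 2.08 and 17.1 in controls. Cux2, a repressor gene higher in female mice, was at 0.251 FPKM or lower in all treated livers and at 0.815, 1.74 and 0.138 FPKM in controls. Control replicate 3 thus held the highest Hsd3b5, Selenbp2, Bcl6, Onecut1 and Ghr and the lowest Cux2, Igfbp1 and Igfbp2 of the controls. Of the other genes listed as higher in male mice, it held the lowest control value for Cyp2d9, Cyp4a12a, Cyp4a12b, Cyp8b1 and Mup1. It held the highest for Mup20, Slco1a1, Cyp7b1, Gstp1, Ugt2b1 and C6, and lay between the other controls for Elovl3 and Susd4. Hsd3b5, Selenbp2 and Bcl6 were called in none of the 3 comparisons by limma (adjusted p of 0.285 or more), Cux2 was below the filter, and the pattern among controls was not tested.

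The 5 neutrophil markers summed to 4.44 to 9.9 FPKM in dmPGE2+APAP, 7.61 to 37 in APAP and 1.76 to 6.12 in control livers. Ly6g and Mpo among them were below the filter. S100a8 rose 3.95-fold and Retnlg 5-fold in APAP livers (limma adjusted p of 0.0436 and 0.0245), and S100a9 did not pass (0.123). No neutrophil marker passed in dmPGE2+APAP livers. APAP replicate 1 held the highest sum and the highest Igfals of its group. The highest Igfals of all libraries was in dmPGE2+APAP replicate 3 (17.2 FPKM), whose sum was the lowest of its group (4.44). A link between them was not tested.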
